A study of Mus musculus with 6 samples.

Results

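Glycolysis and glucose uptake genes were examined for peaks of HA-tagged CDK6 in BCR::ABL1-transformed mouse B-lymphoid cells. The 32 genes were taken by name and cover the glucose transporters, each step from hexokinase to lactate dehydrogenase, the bifunctional enzymes that set fructose-2,6-bisphosphate, and the lactate transporters, out of 21992 protein-coding genes in the GENCODE M21 annotation of mm10. A gene was given a promoter peak in a library when a deposited peak overlapped the window that begins 2000 bp before and ends 200 bp after any of its transcript starts, and peaks over the rest of the gene were counted separately.

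All libraries came from Cdk6-/- pre/pro-B cell lines of C57BL/6 bone marrow that carried the p185 form of BCR::ABL1, the fusion kinase of Philadelphia chromosome-positive leukemia. Into these cells either CDK6-WT or the kinase-inactive mutant CDK6-K43M, both with an HA tag, was brought back from a retroviral vector that also encodes GFP. The tagged protein was therefore driven by the vector and not by the Cdk6 locus, and no library without a tagged protein was analysed here. After crosslinking with DSG and formaldehyde, chromatin was precipitated with an anti-HA antibody, with 2 libraries per variant (replicates 1 and 2) among the 6 samples of the series. The labels do not say whether replicates were separate cell lines or cultures, so that the spread between them may be technical.

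Glycolysis splits glucose into pyruvate in the cytosol, and proliferating lymphoid cells use it for ATP and for carbon. Several of its steps are run by alternative isoforms from separate genes, of which some are found in most dividing cells and others mainly in muscle, liver, brain or red cells. CDK6 partners with D-type cyclins in the cell cycle and is also found on chromatin, although it has no DNA-binding domain of its own. The comparison asks at which of these genes tagged CDK6 was detected, and whether the kinase-inactive form differed.

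CDK6-WT gave 35189 peaks in replicate 1 and 34729 in replicate 2, and CDK6-K43M gave 39797 and 37304. Read totals are not in the lists, but the number of reads under each summit could be recovered from the fold enrichment and the p-value, and its median was 20, 18, 23 and 15 reads in the same order. The share of peaks that lay in promoter windows was 44.5% and 41.5% in the replicate 1 lists and 38% and 36.2% in the replicate 2 lists. Of 9 pre/pro-B genes, among them Pax5 and Igll1, 8 had promoter peaks in all 4 lists, and the exception Rag1 had them in both replicate 2 lists alone. None of 5 myeloid and erythroid genes and none of 4 genes of other tissues had a promoter peak in any list, while 1 of 4 T cell genes, Lck, had peaks in all lists. The strength of a peak is given below as its percentile within its own list, where 100 is the highest −log10 q, together with the reads at the summit.

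The sequences under the summits are shown for the members on which the results turn, as 201 bp of mm10 on the strand of the gene, centred on the median summit of the lists. Capitals mark the E-box CACGTG, the core ACGTG of the hypoxia response element (which also lies inside the E-box), the related core GCGTG, the ETS motif CCGGAAGT, the GC box GGGGCGGGG and the NRF-1 motif, each on either strand. Slc2a1 (chr4:119109013-119109213) and Slc2a3 (chr6:122801433-122801633) encode glucose transporters, and Hk2 (chr6:82774520-82774720) the hexokinase that traps glucose in the cell.
Slc2a1: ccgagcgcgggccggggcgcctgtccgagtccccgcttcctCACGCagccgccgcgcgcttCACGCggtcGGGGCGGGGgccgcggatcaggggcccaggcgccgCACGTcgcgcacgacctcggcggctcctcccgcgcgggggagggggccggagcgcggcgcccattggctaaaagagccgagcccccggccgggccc
Slc2a3: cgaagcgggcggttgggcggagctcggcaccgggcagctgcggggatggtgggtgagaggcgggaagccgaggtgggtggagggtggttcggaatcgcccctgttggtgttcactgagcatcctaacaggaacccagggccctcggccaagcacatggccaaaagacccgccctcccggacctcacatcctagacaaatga
Hk2: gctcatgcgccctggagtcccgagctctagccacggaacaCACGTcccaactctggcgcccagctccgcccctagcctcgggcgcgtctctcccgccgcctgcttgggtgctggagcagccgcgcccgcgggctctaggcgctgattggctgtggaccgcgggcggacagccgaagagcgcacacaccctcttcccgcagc

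The middle of the pathway is represented by Gpi1 (chr7:34230244-34230444), which makes fructose-6-phosphate, by Pgk1 (chrX:106186765-106186965), which makes ATP, and by Pgam1 (chr19:41911711-41911911), which moves the remaining phosphate. Gpi1 had similar percentiles in all lists, and Pgk1 had peaks near the top of the replicate 1 lists.
Gpi1: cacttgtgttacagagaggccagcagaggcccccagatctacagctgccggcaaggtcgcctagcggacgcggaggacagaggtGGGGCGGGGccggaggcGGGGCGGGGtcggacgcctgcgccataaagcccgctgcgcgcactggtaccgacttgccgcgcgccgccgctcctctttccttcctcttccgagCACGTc
Pgk1: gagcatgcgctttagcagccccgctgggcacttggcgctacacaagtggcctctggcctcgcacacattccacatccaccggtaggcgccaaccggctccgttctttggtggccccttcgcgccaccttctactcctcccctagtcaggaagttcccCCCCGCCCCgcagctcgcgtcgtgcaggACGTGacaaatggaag
Pgam1: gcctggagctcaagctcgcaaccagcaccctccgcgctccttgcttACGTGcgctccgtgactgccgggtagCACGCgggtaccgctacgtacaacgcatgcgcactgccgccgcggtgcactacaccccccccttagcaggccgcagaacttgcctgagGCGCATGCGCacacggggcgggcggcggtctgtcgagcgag

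The end of the pathway is represented by Pkm (chr9:59656352-59656552), the pyruvate kinase of most dividing cells, Ldha (chr7:46845646-46845846), which makes lactate, and Slc16a1 (chr3:104638453-104638653), which exports it. For Ldha the window lies at the upstream of the 2 starts that carried peaks.
Pkm: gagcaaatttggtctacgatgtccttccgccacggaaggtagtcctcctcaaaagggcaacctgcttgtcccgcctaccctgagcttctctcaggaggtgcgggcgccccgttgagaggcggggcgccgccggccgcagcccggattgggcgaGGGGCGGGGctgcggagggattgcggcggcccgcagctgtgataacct
Ldha: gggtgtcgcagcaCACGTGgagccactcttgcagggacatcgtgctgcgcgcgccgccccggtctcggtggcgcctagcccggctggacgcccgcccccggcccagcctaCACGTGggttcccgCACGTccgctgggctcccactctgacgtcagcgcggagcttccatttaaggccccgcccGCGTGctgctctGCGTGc
Slc16a1: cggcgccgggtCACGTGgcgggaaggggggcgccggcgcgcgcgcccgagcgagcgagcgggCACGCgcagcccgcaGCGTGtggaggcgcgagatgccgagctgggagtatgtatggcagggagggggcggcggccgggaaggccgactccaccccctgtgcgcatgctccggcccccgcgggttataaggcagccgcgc

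Ldhb, which encodes the other common lactate dehydrogenase subunit, had no promoter peak in any list. Its RefSeq promoter (chr6:142507908-142508207, mm10), from 250 bp before to 50 bp after the start, is shown for comparison.
Ldhb: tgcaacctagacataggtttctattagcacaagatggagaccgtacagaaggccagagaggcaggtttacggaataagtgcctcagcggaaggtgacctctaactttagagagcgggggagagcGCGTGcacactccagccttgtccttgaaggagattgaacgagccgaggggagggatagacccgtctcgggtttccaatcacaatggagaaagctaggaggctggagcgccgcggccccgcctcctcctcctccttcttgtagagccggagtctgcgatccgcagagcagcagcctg

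The letters differed widely between promoters with a peak. The Ldha and Slc16a1 windows held CACGTG, the Gpi1 window held the GC box at separate positions, and the Pgam1 window held the NRF-1 motif. The Slc2a3 window held none of the motifs, but of the 3 Slc2a3 summits it covered only that of CDK6-K43M replicate 1. RefSeq promoters of the same length were found for 30 of the 32 genes, and ACGTG occurred in 41.7% of their 48 promoters against 21.1% of all 20150 promoters. CACGTG occurred in 10.4% against 8.03%, GCGTG in 47.9% against 39.6%, the GC box in 16.7% against 15.8%, NRF-1 in 8.33% against 6.60% and CCGGAAGT in 2.08% against 5.35%. These matches describe letters only, and promoters of the same gene overlap.

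CDK6 peaks were found at most promoters of the pathway. By the study's rule for binding by both variants, a peak in at least 3 of the 4 lists, 24 of 32 member promoters (75%) were bound, against 41.3% of all protein-coding genes. A peak in all 4 lists was found at 19 promoters, against 33.2% of all genes. A further 5 (Slc2a3, Pfkfb1, Pfkfb2, Bpgm and Eno3) had peaks in 3 lists, 2 (Aldoc and Slc16a3) in a single list, and 4 (Pgam2, Eno2, Pklr and Ldhb) in none. Per library, 25 and 24 member promoters had a peak with CDK6-WT and 26 and 22 with CDK6-K43M, where the shares of all genes were 47.0%, 40.1%, 48.5% and 39.4%. The mean number with CDK6-K43M was 0.5 lower, with an exact permutation p of 1.0 over the libraries.

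**Figure D1:**
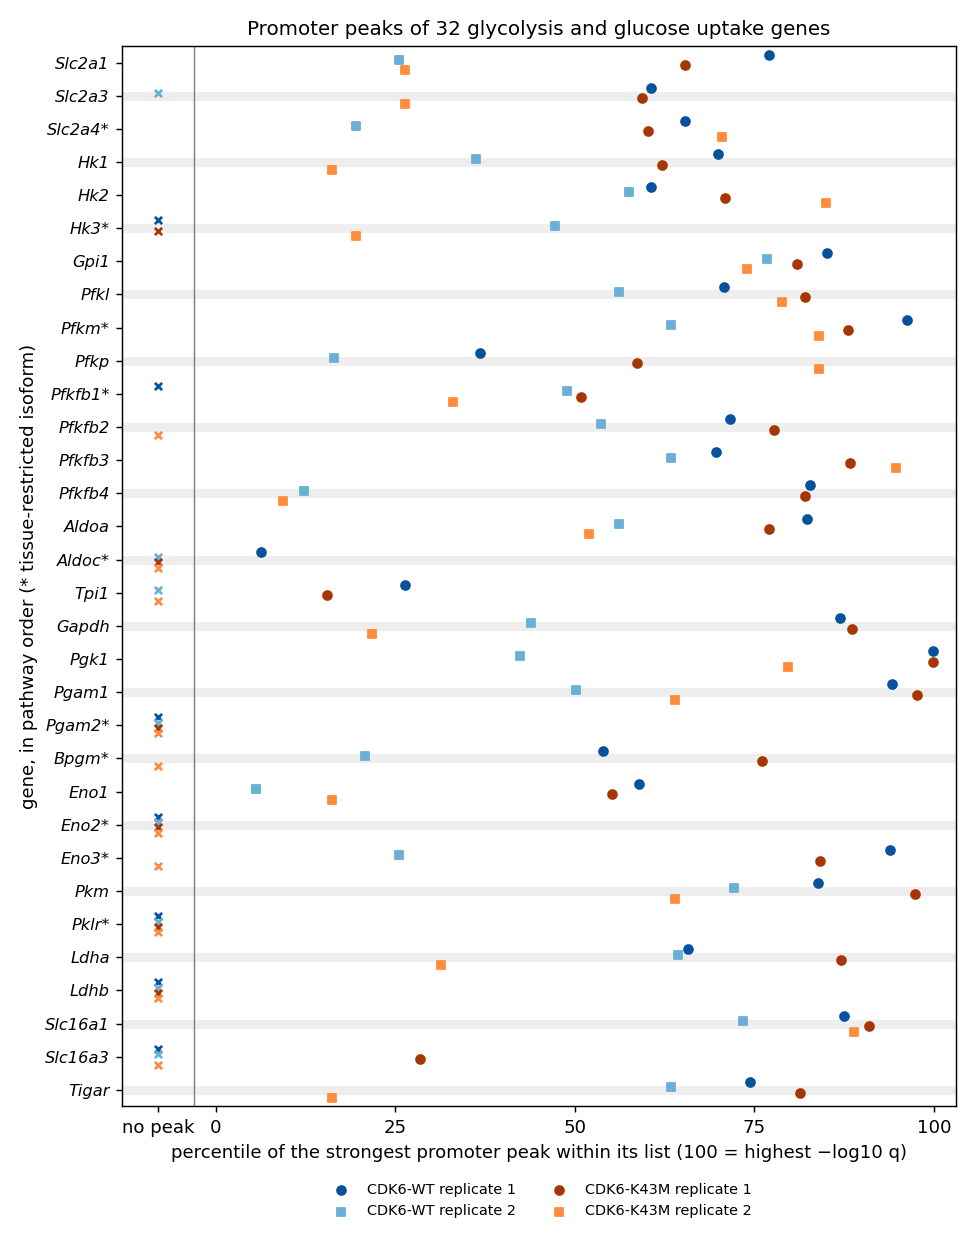
Percentile of the strongest promoter peak within its list (x axis, 100 = highest −log10 q) for the 32 genes (y axis, pathway order), with a point for each of the 4 libraries and a cross at the left where a library had no promoter peak. The 4 genes with crosses alone are Pgam2, Eno2, Pklr and Ldhb, and circles (replicate 1) mostly sit to the right of squares (replicate 2).

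Summits lay close to the starts. In the 19 genes with peaks in all 4 lists, 53 of the 76 strongest summits were within 200 bp of a start of the same gene, and the median distance was 116 bp. The same distances were not computed over all genes, so this is not shown to be particular to the members. Members also have more annotated starts, a median of 7.5 against 3 over all genes, which by itself brings the nearest start closer. The members did not stand out for strength. Their median percentile was 77.0 and 56.1 with CDK6-WT and 82.0 and 64.0 with CDK6-K43M, where all genes with peaks in all 4 lists had 84.3, 63.4, 86.1 and 62.8.

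Glucose enters lymphoid cells through GLUT1 and GLUT3, the products of Slc2a1 and Slc2a3. At Slc2a1 the strongest peak had 26 and 13 reads with CDK6-WT and 25 and 11 with CDK6-K43M, over a background of 1.54 to 1.90 reads, at percentiles 77.0, 25.5, 65.3 and 26.4. Both variants were thus high in replicate 1 and low in replicate 2. At Slc2a3 the peak had 20 reads in CDK6-WT replicate 1, none was listed in CDK6-WT replicate 2, and 25 and 11 reads were found with CDK6-K43M, at percentiles 60.6, 59.3 and 26.4. Its 3 summits were spread over 823 bp. Slc2a4, which encodes the insulin-responsive transporter of muscle and fat, had a peak 819 bp upstream of its start in all 4 lists at percentiles 65.4, 19.5, 60.2 and 70.5. The non-coding gene Gm12310 also has a start within reach of that peak.

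Hexokinase commits glucose to the cell, and Hk1 and Hk2 are its broadly used isoforms. Hk2 had 20 and 22 reads with CDK6-WT and 28 and 29 with CDK6-K43M, at percentiles 60.6, 57.6, 70.9 and 84.9, with all summits within 68 bp. Both CDK6-K43M libraries ranked above both CDK6-WT libraries here. Hk1 had 24, 14, 26 and 10 reads in the same order, and its peaks also overlapped the promoter window of the antisense gene Hk1os. Hk3, the isoform of myeloid cells, had peaks in the replicate 2 lists alone, at percentiles 47.3 and 19.5 and 1582 bp upstream of the start. Such a split towards replicate 2 was seen at 1.28% of all genes.

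The isomerase gene Gpi1 was among the steadiest of the promoters, with 31 and 22 reads with CDK6-WT and 34 and 20 with CDK6-K43M, at percentiles 85.1, 76.7, 81.0 and 73.9. Its summits straddled the start. Of the phosphofructokinase subunits, which form the main control point of the pathway, Pfkl and Pfkp are the broad and Pfkm the muscle isoform. All 3 had peaks in all 4 lists. At the start of Pfkl the percentiles were 70.8 and 56.1 with CDK6-WT and 82.0 and 44.9 with CDK6-K43M. At Pfkp the peak shared by all lists lay 623 bp upstream of an internal start, at percentiles 25.3, 16.4, 10.1 and 84.0, so that 1 library, CDK6-K43M replicate 2, stood apart from the other 3.

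Fructose-2,6-bisphosphate activates phosphofructokinase and is made and removed by the Pfkfb enzymes. Pfkfb3, the isoform with the highest kinase relative to phosphatase activity, had promoter peaks of 23 and 20 reads with CDK6-WT and 40 and 38 with CDK6-K43M, at percentiles 69.6, 63.4, 88.3 and 94.7. In CDK6-K43M replicate 2 this was a broad peak with its summit 1189 bp downstream of a start. The other 3 lists had a separate peak there, outside the promoter window, and at that place Pfkfb3 had 47, 36, 74 and 38 reads at percentiles 97.4, 92.0, 99.5 and 94.7, where the variants overlapped. Pfkfb4, the isoform best known from testis, had percentiles of 82.8 and 82.0 in the replicate 1 lists and 12.3 and 9.30 in the replicate 2 lists. The replicate 2 peaks of Pfkfb4 held 18 and 11 reads over a local background of 4.35 and 2.27 reads, and the replicate 1 peaks 32 and 38 reads over 2.06 and 2.46. Tigar, which encodes a phosphatase that lowers the same metabolite, had 25, 20, 34 and 10 reads at percentiles 74.4, 63.4, 81.3 and 16.2.

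Among the genes from aldolase to enolase, the broad isoforms Aldoa, Gapdh, Pgk1, Pgam1 and Eno1 all had peaks in all 4 lists. Pgk1 had 68 and 22 reads with CDK6-WT and 81 and 22 with CDK6-K43M, at percentiles 99.8, 42.4, 99.8 and 79.7, with summits within 20 bp of each other. Its local background was 4.35 reads in CDK6-WT replicate 2 against 1.54 to 1.98 in the other lists. The Pgk1 peak was in the top percent of both replicate 1 lists and of neither replicate 2 list. Whether the retroviral vectors in these cells carry Pgk1 promoter sequence is not given in the sources used here, and reads from such a copy could not be told apart from those of the gene. Pgam1 showed the same order, with 40, 16, 59 and 16 reads. By mean percentile Eno1 was the weakest of the broad genes with peaks in all 4 lists, at percentiles 59.0, 5.63, 55.2 and 16.2. Tpi1, the triose isomerase gene, had peaks in the replicate 1 lists alone, at percentiles 26.4 and 15.5, a split seen at 5.68% of all genes.

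Pyruvate kinase and lactate dehydrogenase close the pathway. Pkm had 30 and 27 reads with CDK6-WT and 57 and 16 with CDK6-K43M, at percentiles 83.9, 72.2, 97.4 and 64.0. Its strongest summits were spread over 1090 bp, with that of CDK6-K43M replicate 2 in a separate peak downstream. In the region of the other lists this library had 19 reads at percentile 54.4. Ldha had 26, 19, 39 and 13 reads at percentiles 65.8, 64.4, 87.1 and 31.3, but the strongest peak lay at the downstream start in 3 lists and at the upstream start in CDK6-K43M replicate 1. At the upstream start alone the Ldha percentiles were 63.7, 61.1, 87.1 and 10.2. In both genes CDK6-K43M spanned the range of CDK6-WT, with replicate 1 the highest and replicate 2 the lowest. Slc16a1 (MCT1) had the highest mean percentile of the members by the strongest promoter peak, 85.1 ± 7.95 (SD, n = 4), with 46 and 21 reads with CDK6-WT and 60 and 25 with CDK6-K43M. Slc16a3 (MCT4), the transporter best known from glycolytic muscle, had a single peak of 16 reads in CDK6-K43M replicate 1.

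**Figure D2:**
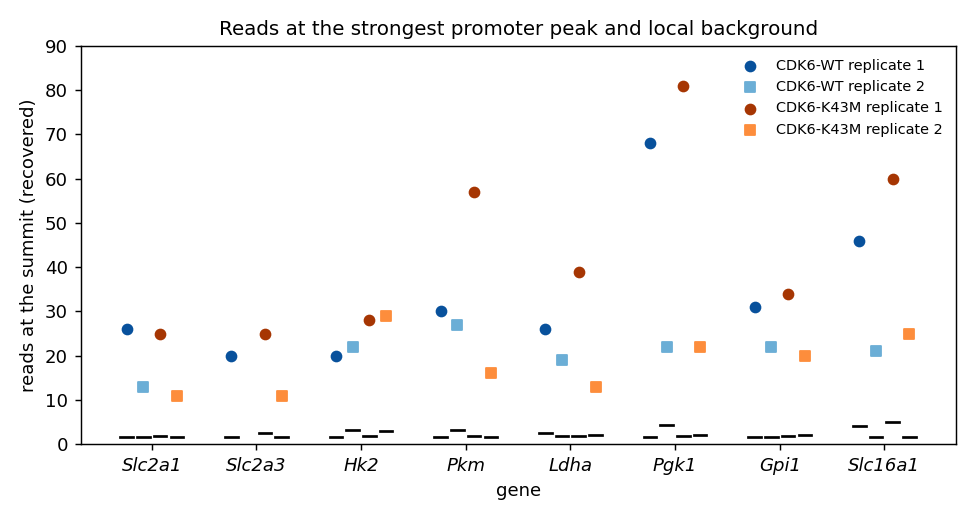
Reads recovered at the summit of the strongest promoter peak (y axis) in each library for 8 genes (x axis), with a short black line for the local background of the same peak. Pgk1 shows the widest gap between replicate 1 (68 and 81 reads) and replicate 2 (22 and 22 reads), and CDK6-WT replicate 2 has no point at Slc2a3.

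Of 19 members classed as broadly expressed from general knowledge, 17 were bound by both variants, the exceptions being Tpi1 and Ldhb. Of 10 tissue-restricted members 5 were bound (Slc2a4, Pfkm, Pfkfb1, Bpgm and Eno3), and of 3 unclassed members 2, beside 41.3% of all protein-coding genes. The share of the restricted members is thus near that of all genes, and the difference between the classes was not tested. Expression was not measured in these libraries, so the classes were not checked against RNA from the same cells.

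At 3 of the 7 restricted members with any promoter peak (Pfkm, Eno3 and Pfkfb1), another coding gene started within 449 bp of the strongest summits. The strongest Pfkm peak, at percentiles 96.3, 63.4, 88.1 and 84.0, had its summit 12 to 71 bp from the start of Senp1, a SUMO protease gene read from the opposite strand, and 649 to 909 bp from the nearest Pfkm start. Pfkm also had a weaker peak near an internal start, at chr15:98108408-98108888 in CDK6-K43M replicate 1, with 24, 15, 24 and 15 reads. The strongest Eno3 peak had its summit outside the promoter window, 293 to 449 bp from the start of Pfn1, which encodes the actin-binding protein profilin, and 2109 to 2265 bp upstream of Eno3. CDK6-WT replicate 1 also had a weaker Eno3 peak inside the window, with 14 reads and its summit 1154 bp upstream. CDK6-K43M replicate 2, which had no Eno3 promoter peak, had a peak in the same merged region that did not reach the window, with 15 reads at percentile 58.4. Pfkfb1 shared its peak with the DNA repair gene Apex2, at 53 to 125 bp, and the single weak Aldoc peak, of 12 reads, lay 1021 bp from Spag5 and 2021 bp from Aldoc. Bpgm, the gene of the enzyme that makes 2,3-bisphosphoglycerate in red cells, had peaks of its own. Its summits lay 6 to 18 bp from a start of Bpgm at percentiles 53.9, 20.8 and 76.1, with no peak in CDK6-K43M replicate 2. In CDK6-WT replicate 2 this was a different start of the gene, and the summits were spread over 239 bp. No other coding gene started within 63861 bp. The unclassed member Pfkfb2 shared its peaks with Yod1 and Gm29427, at 57 to 242 bp. When a peak was counted only for the gene with the nearest coding start, 23 members remained bound by both variants, with Eno3 lost, against 36.2% of all genes.

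**Figure D3:**
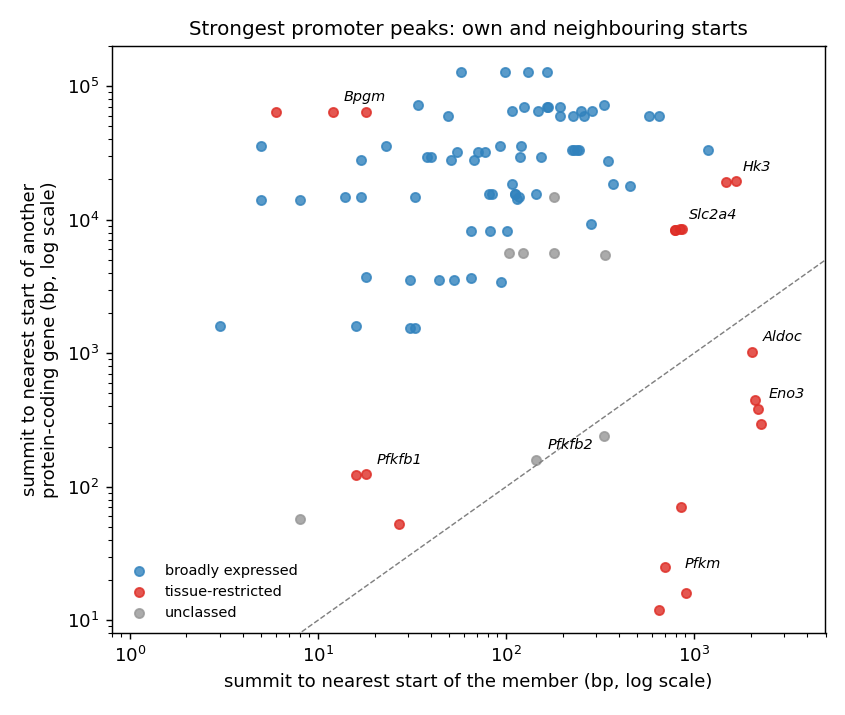
Distance from the summit of each strongest promoter peak to the nearest start of the member (x axis, log scale) and to the nearest start of another protein-coding gene (y axis, log scale), with a point per gene and library and a dashed line of equal distance. Pfkm, Eno3 and Aldoc and a single Pfkfb2 point (331 bp against 242 bp) lie below the line, nearer to the other gene, while the broadly expressed genes lie above it.

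Promoter composition and the length searched moved with the count. CpG-rich promoters, with an observed to expected CpG ratio of at least 0.6 within 500 bp of a coding start, were bound by both variants in 67.1% of all genes, and CpG-poor promoters in 14.2%. Among the members 16 of 18 CpG-rich and 8 of 14 CpG-poor promoters were bound. The bound CpG-poor promoters had ratios just below the limit, from 0.551 (Pfkfb2) to 0.596 (Slc2a4), apart from Eno3 at 0.356. The CpG-poor promoters that were not bound ran from 0.198 (Pklr) to 0.548 (Ldhb). The CpG-rich exceptions were Eno2 and Slc16a3, the neuronal enolase gene and the MCT4 gene. Members had a median of 7.5 transcript starts and 6260 bp of promoter window, against 3 starts and 4402 bp over all genes. Among the 10433 genes whose window length lay in the interquartile range of the members, 3022 to 9098 bp, 47.3% were bound by both variants. The part of window length in the members' count was not tested beyond this share.

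The gap between the members and all genes narrowed when weaker peaks were left out. With a −log10 q of at least 5, 18 members (56.2%) were bound by both variants against 33.9% of all genes, and with at least 10, 9 members (28.1%) against 17.4%. With only the 10000 strongest peaks of each list, 5 members (15.6%) remained against 13.1%. These 5 were Gpi1, Pfkm, Pgk1, Pkm and Slc16a1, of which Pfkm was counted through the peak whose summits lay nearer to the start of Senp1. Slc2a1 and Slc2a3, the lymphoid glucose transporter genes, were no longer bound by this rule at a −log10 q of at least 5, while Slc2a4 was still bound at 10. The order depended on the window. With 500 bp to either side of a start Slc2a1 and Slc2a3 stayed bound and Slc2a4 did not. With the summit required inside the main window Slc2a4 alone of these stayed bound.

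**Figure D4:**
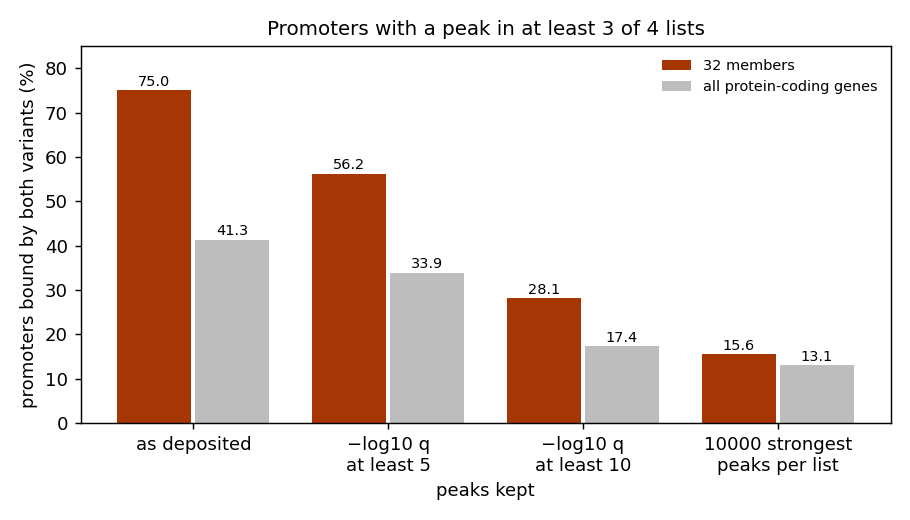
Share of promoters bound by both variants (y axis, %) among the 32 members and among all protein-coding genes, for the deposited lists and for 3 stricter selections of peaks (x axis). The members' bar falls from 75% to 15.6% and that of all genes from 41.3% to 13.1%.

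No member promoter was particular to a variant. A peak in both lists of CDK6-WT and neither of CDK6-K43M was found at 0 members and 0.0818% of all genes, and the reverse at 0 members and 0.241% of all genes. Among the 19 members with peaks in all 4 lists, the percentile of the strongest peak was higher in both CDK6-K43M lists at 5 (Hk2, Pfkl, Pfkp, Pfkfb3 and Slc16a1) and in both CDK6-WT lists at 0, where the shares of all genes were 6.78% and 3.61%. The differences were 18.8, 17.0, 44.8, 25 and 9.38 percentile points, and the exact permutation test (two-sided) gave p = 0.33 for each, the lowest value possible with 2 libraries against 2.

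The place of the strongest peak was not the same in every list at 3 of these 5 genes. At Pfkp the strongest summits lay up to 11888 bp apart, at Pfkfb3 1273 bp and at Pfkl 495 bp. When the comparison was held to a single merged region per gene, 2 of 20 members kept the order without overlap, Hk2 and Slc16a1, against 6.89% of all genes. At Hk2 the difference was 10.3 points in replicate 1 and 27.3 in replicate 2, and at Slc16a1 it was 3.41 and 15.4. Hk2 did not keep the order when percentiles were ranked among the promoter peaks of each list, with an exact permutation p of 0.67. The median difference over the 19 members was 3.41 points, with a range from −20.2 (Tigar) to 44.8 (Pfkp), against 0.546 over all genes in all 4 lists.

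The replicate numbers separated the libraries more often than the variants did. In 13 of the 19 members both replicate 1 lists ranked above both replicate 2 lists, and in 0 the reverse, where the shares of all genes were 69.3% and 10.1%. This order is therefore that of promoters in general in these lists, and the larger share of promoter peaks in the replicate 1 lists moved with it.

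**Figure D5:**
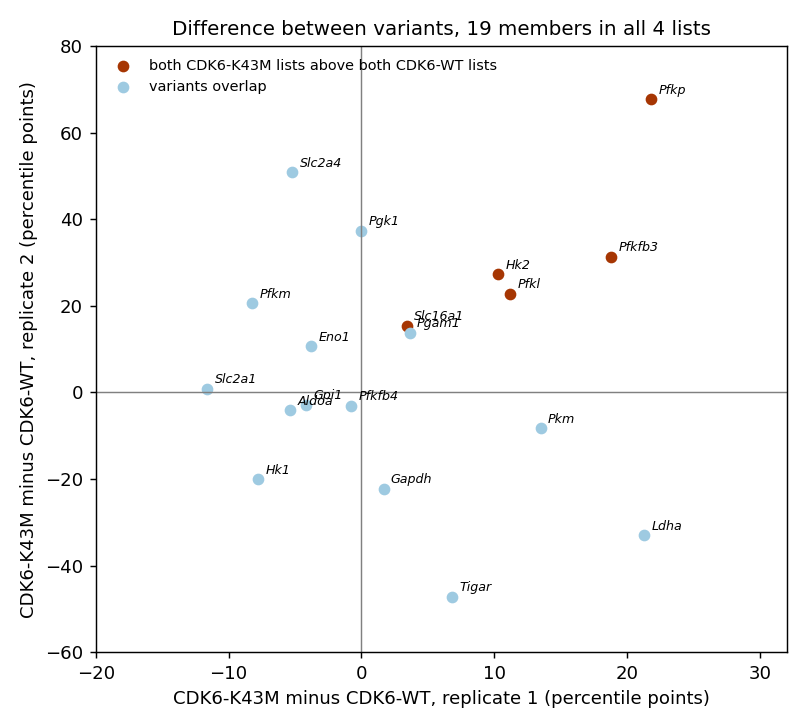
Difference in percentile between CDK6-K43M and CDK6-WT within replicate 1 (x axis) and within replicate 2 (y axis), in percentile points, for the 19 members with promoter peaks in all 4 lists. Hk2, Pfkl, Pfkp, Pfkfb3 and Slc16a1, where both CDK6-K43M lists were higher, lie at the upper right, and Tigar, at 6.82 and −47.2, lies lowest.

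Few gene bodies held a region bound by both variants, among the members and among all genes. Merged regions that touched a promoter window were left out of this count. Outside the promoter windows 3 of 32 members had a region bound by both variants, against 14.7% of all genes, and the number of such regions was 0.0451 per 10 kb of member body against 0.0629 over all coding genes. The median length was 18.8 kb for the members and 17.3 kb for all genes. Pfkp had an intronic region at chr13:6633429-6633950 in all 4 lists with 26, 34, 31 and 24 reads, at percentiles 77.0, 92.2, 77.7 and 84.3. This region was stronger than the Pfkp promoter peaks in each library apart from CDK6-K43M replicate 2, where they were alike. A second intronic Pfkp region, chr13:6646961-6647522, was in 3 lists. Pfkfb3 had an intronic region at chr2:11548039-11549109 and Eno1 a further such region at chr4:150239970-150240423, each in all 4 lists, and the Eno1 region, with 34, 21, 46 and 16 reads, outranked the Eno1 promoter in every library. In all, 20 regions lay in 11 member bodies, 17 of them intronic, and 11 were in a single list, most often CDK6-K43M replicate 1 (6 regions).

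Genes of related pathways were counted in the same way, to be read beside the 41.3% of all protein-coding genes. Of 7 pentose phosphate genes 6 were bound by both variants, and the exception was G6pdx, the gene of the entry enzyme, with peaks in the replicate 1 lists alone. Of 6 genes of gluconeogenesis 4 were bound, while the liver genes G6pc and Pck1 had no peak in any list. Of 10 regulators 8 were bound, among them Myc at percentiles 91.3, 94.7, 93.9 and 95.6, and the exceptions were Mlxipl and Egln3. Of 17 further isoforms and transporters 7 were bound, a share near that of all genes, including Adpgk and Bsg, the gene of the chaperone of the lactate transporters, while 9, such as Pgk2 and Ldhc, had no peak. Eno4 had weak peaks in both CDK6-K43M lists alone, at percentiles 12.5 and 2.44.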

How the data were processed

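Anti-HA ChIP-seq of 4 libraries was analysed, and the 2 input samples were not used here. As the study's methods and the submitters' processing notes say, the authors checked reads with FastQC 0.11.5, trimmed them with Trimmomatic 0.36, aligned them to mm10 with BWA 0.7.15, discarded blacklisted regions (bedtools) and reads that mapped to several places or with low quality (SAMtools 1.3.1), and called peaks per library with MACS2 2.1.0. Each deposited peak carries a score, a ratio (the fold enrichment), a −log10 p-value and a −log10 q-value, and other information (the summit offset). Sample titles gave the variant and replicate number.

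Here, peaks were matched to GENCODE M21 transcript starts by an overlap of at least 1 bp, and percentiles were ranks of −log10 q within a list. The study used GENCODE M13, on the same build. Reads at the summit were solved from fold enrichment and −log10 p, and 100.0% of peaks gave whole reads within 0.001 of the −log10 p. They are reads under 1 position, and the total depth of each library is unknown. Both steps were tested on simulated data. Merged regions join peaks that share a base. With 2 libraries per variant, exact permutation tests over the 6 assignments were used. The members and lists were chosen with earlier results of these data known, so no set was tested. The named genes were Slc2a1, Slc2a3, Hk2, Pkm and Ldha, the 5 highest mean percentiles, promoters split by variant or replicate number, restricted members with a peak, and the 3 members with most body regions bound by both. Others named, such as Pfkl, Pfkfb4, Tigar and Pgam1, were chosen after their values were seen. Alternatives were stricter peaks, other windows and rankings, left-out libraries and, chosen after seeing the data, nearest-start assignment and merged regions. Python 3.11.15, numpy 2.4.6, pandas 2.3.3, scipy 1.17.1, pysam 0.24.0 and matplotlib 3.10.9 were used.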

Additional observations from a re-analysis of the deposited data

How the results depend on the processing

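The count of 24 member promoters bound by both variants was 18 to 25 under the other windows, transcripts and overlap rules, a −log10 q of at least 5, and each left-out library, and 23 and 24 with nearest-start assignment and with merged regions, which were chosen after seeing the data. With a library left out the rule was changed to a peak in at least 1 list of each variant. It then held for 22 to 25 members, against 38.4% to 46.9% of all genes. Stricter lists lowered the count. With a −log10 q of at least 5, the number in all 4 lists fell from 19 to 10 and that in CDK6-K43M replicate 2 to 13. With at least 10, 9 members were bound by both variants and 2 were in all 4 lists, against 17.4% of all genes bound by both, and CDK6-WT replicate 2 had 3 and CDK6-K43M replicate 2 had 9. With the 10000 strongest peaks these became 5 and 2 members against 13.1%, with 13, 3, 16 and 8 per list. Such lists hold fewer peaks by construction, and their shares of all genes per list or in all 4 lists were not computed.

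The small difference between variants in the number of member promoters, −0.5, changed sign under several settings. It was 3.50 at a −log10 q of at least 10, 4 with the 10000 strongest peaks, 1.5 with windows of 500 bp to either side, 0.5 with the summit inside the window, and from −2.50 to 1.5 without single libraries. Promoters of 1 variant alone, 0 with the deposited lists, numbered 1 (Pfkp) at a −log10 q of at least 10, 2 (Pfkl and Pfkfb3) with the 10000 strongest peaks, 1 (Slc2a3) with the summit inside the window, and 1 to 3 without single libraries, where 3 lists make the rule easier to meet. Without CDK6-K43M replicate 1 these 3 were Pfkfb2, Bpgm and Eno3. The count of gene bodies, 3, was 1 (Pfkp) at a −log10 q of at least 10 and with the 10000 strongest peaks, 6 with summits in place of whole peaks, and 3 to 6 without single libraries. It was 5 without CDK6-WT replicate 1 or 2 and 6 without CDK6-K43M replicate 2, where a region needed 1 list of each variant. The number of members with higher percentiles in both CDK6-K43M lists was 2 in place of 5 within the same merged region. It was 4 of 19 with percentiles ranked among promoter peaks and 4 of 17 with windows of 500 bp. Shares of all genes were not computed for 1-variant and body settings or these other rankings and windows.

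Without single libraries the variant difference ran from −10.1 to 47.4 points at Pgk1 and from −52.7 to 12.3 at Tigar, and 14 of 19 members changed sign. The other 5 could not, since they are those where the variants did not overlap. Another ranking or window changed the sign at 1 member. With the replicate number as a block (replicate block) the count difference was again −0.5, with an exact sign-flip p of 1.0, and the differences at Hk2, Pfkl, Pfkp, Pfkfb3 and Slc16a1 kept their values with p = 0.50, the lowest that 2 pairs allow. The labels do not say that the numbers mark shared cells or days. Of the mean percentiles of named members, 104 of 108 alternatives moved by less than 1 SD. Leaving out 1 library cannot move a mean that far, so those settings tested nothing here. The exceptions were Slc2a4, Tpi1 and Aldoc, the last with a peak in a single list. With windows of 500 bp Slc2a4 kept a peak in 1 list, at percentile 5.51 in place of a mean of 53.9. By fold enrichment the mean of Tpi1 was 10.6 in place of 20.9. At depths of 7 to 9 reads for the weakest peaks, a missing peak shows that it was not detectable, not that CDK6 was absent.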
